A study of Mus musculus with 6 samples.

Results

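Acute phase proteins are blood proteins whose hepatic output shifts in inflammation, and 10 of their genes are described here: the serum amyloid A genes Saa1, Saa2, Saa3 and Saa4, the orosomucoid genes Orm1, Orm2 and Orm3, lipocalin 2 (Lcn2), haptoglobin (Hp) and serum amyloid P component (Apcs). They were found by symbol among the 43346 genes of the deposited count table. Each symbol matched a single row, and all 10 rows were among the 19352 genes with enough counts to be tested. The RNA came from whole livers of mice on the FFC diet, a dietary model of metabolic dysfunction-associated steatohepatitis, a fatty liver disease with inflammation. All mice were also given a short hairpin RNA (shRNA) by way of adeno-associated virus 8. In 3 libraries, numbered 2, 3 and 2600, the shRNA was directed against S100a11, a calcium-binding S100 protein, and in the other 3, numbered 28, 30 and 31, it was scrambled, so the controls share the diet and the virus. The comparison asks what silencing S100a11 does to these transcripts on this diet. Neither the strain, sex and age of the mice nor the promoter driving the shRNA and the time since injection are stated in the labels. No label states whether the libraries of a group came from different mice, and p-values therefore cover only the spread between these samples, which may be technical.

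In the acute phase response, cytokines such as interleukin 6 and interleukin 1 act on hepatocytes through STAT3, NF-kappaB and C/EBP transcription factors and raise the transcription of a set of secreted proteins. Saa1 and Saa2 encode the acute phase serum amyloid A proteins carried on high-density lipoprotein, and Saa3 a form made largely outside hepatocytes. Saa4 encodes the constitutive serum amyloid A, which is also carried on high-density lipoprotein but responds little to inflammation. The orosomucoids are lipid- and drug-binding plasma glycoproteins, Lcn2 withholds iron from bacteria by binding siderophores, Hp captures free haemoglobin, and Apcs, a pentraxin, is the acute phase pentraxin of the mouse.

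In the libraries labelled S100a11 shRNA, 4 of the 10 genes were lower (Saa2, Orm2, Lcn2 and Apcs), 1 was higher (Saa4), and 5 did not pass the test (Saa1, Saa3, Orm1, Orm3 and Hp), by edgeR's quasi-likelihood test with Benjamini-Hochberg adjustment over all tested genes at 0.05. Of all tested genes, 14.1% were called, 8.28% lower and 5.82% higher. The median log2 change (S100a11 shRNA minus scrambled) of the 10 genes was -0.40, beside 0.04 over all tested genes. By its sign alone, 6 genes had a lower and 4 a higher fitted level. The groups of libraries did not overlap for the 5 called genes, and such a separation was seen for 34.7% of all tested genes, 18.1% with the libraries labelled S100a11 shRNA lower and 16.5% with them higher. In bulk liver RNA, fewer cells of a type and less RNA per cell cannot be told apart.

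The libraries held 57717111 to 78091845 counts in the scrambled group and 53517387 to 69874237 in the group labelled S100a11 shRNA. Levels below are CPM, which relate each count to a library total adjusted by the trimmed mean of M-values (TMM). S100a11 itself stood at 16.0, 3.55 and 3.41 CPM in the libraries labelled S100a11 shRNA 2, 3 and 2600, and at 15.9, 22.9 and 30.0 CPM in scrambled libraries 28, 30 and 31. Library 2 thus lay within the scrambled range and goes against its label, while libraries 3 and 2600 lay below it. A chi-square per gene over all genes grows with depth and weighs abundant genes most. Between library 2 and scrambled libraries 28, 30 and 31 it was 193.2, 222.8 and 158.1. Between library 2 and libraries 3 and 2600 it was higher, 235 and 348.8. Among the scrambled libraries it was lower than any of these, 48.4, 75.2 and 63.1, and between libraries 3 and 2600 it was 147.4. Library 2 was thus farther from each scrambled library than those were from one another. For Saa2, Orm2, Lcn2, Apcs and Saa4, library 2 lay outside the scrambled range, on the same side as libraries 3 and 2600. The fitted log2 change of S100a11 was -1.57 ± 0.56 (SE, adjusted p = 0.0951, edgeR quasi-likelihood test) and -2.75 without library 2 (adjusted p = 0.000441). The TMM factors of the scrambled libraries, 1.10 to 1.19, were above those of the other group, 0.822 to 0.932. The predicted gene Gm26917 held 3.99%, 6.44% and 10.85% of the counts in libraries 2, 3 and 2600 and 3.16% to 4.42% in the scrambled ones, and library 2600 had the fewest genes detected, 22893. The part of these differences in the results was not tested. With library totals in place of TMM the median change of all genes moved from 0.04 to -0.32, and 9.09% of called genes were higher in place of 41.3%. Under that scaling Saa1 and Orm1 were called lower too, making 6 of the 10 lower, when 20.5% of all tested genes were called lower and 2.05% higher.

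**Figure D1:**
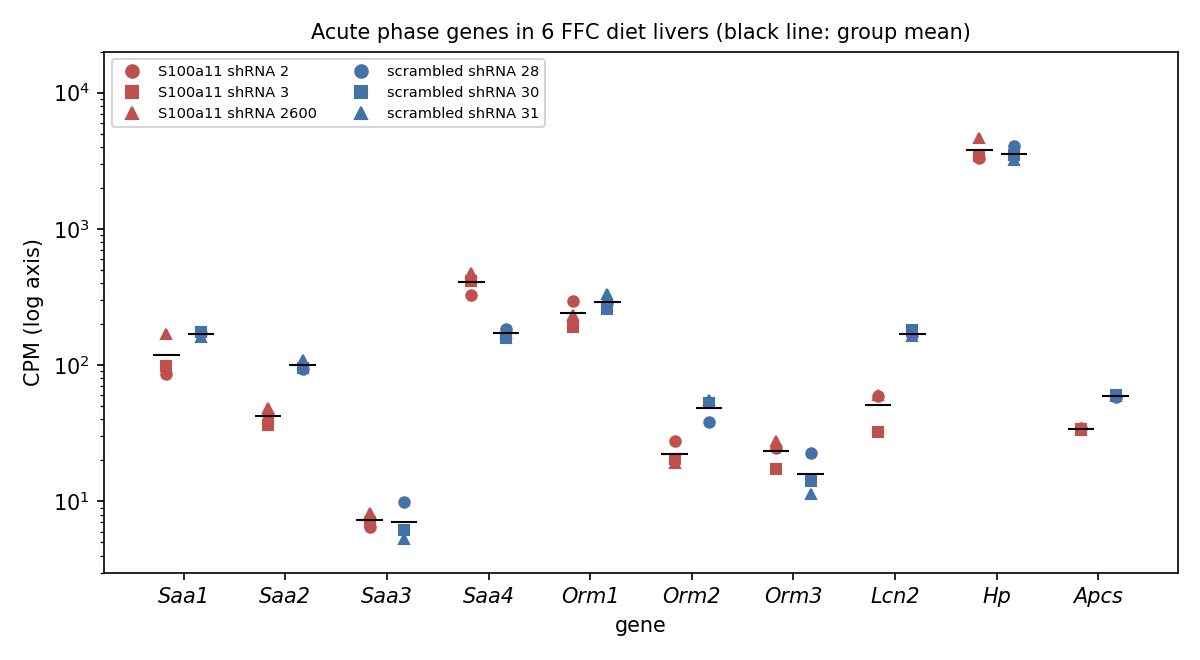
Level of each of the 10 genes in CPM on a log axis, with a point per library and a bar at each group mean. For Saa2, Orm2, Lcn2 and Apcs the 3 libraries labelled S100a11 shRNA lie below all 3 scrambled libraries, for Saa4 they lie above them, and for the other 5 genes the groups overlap.

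Compared per length, as RPKM, which is CPM divided by the table's gene length in kilobases, the 10 genes spanned a wide range. In the scrambled libraries the order of mean levels was Hp (2649 RPKM), Orm1 (375), Saa1 (280), Saa2 (163), Saa4 (85.0), Lcn2 (65.0), Orm2 (62.9), Apcs (60.9), Orm3 (20.6) and Saa3 (13.4). Among the scrambled libraries Orm2 overlapped with Lcn2 and with Apcs, while Lcn2 and Apcs did not overlap. Orm3 and Saa3 overlapped too. In the libraries labelled S100a11 shRNA, Saa4 (200 RPKM) stood beside Saa1 (194 RPKM), and Lcn2 (19.3 RPKM) came below Orm3 (30.1 RPKM). The libraries of each pair overlapped. The table gives Lcn2 a length of 2623 bases while its coding transcript with the longest reading frame has 915, so its level per length depends on the gene model.

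The 4 serum amyloid A genes lie together on chromosome 7 (mm10, as the table gives them): Saa3 at chr7:46711998-46715676, Saa4 at chr7:46728017-46732543, Saa1 at chr7:46740501-46742980 and Saa2 at chr7:46751833-46754314. By the GENCODE M21 annotation Saa2 is on the plus strand and the other 3 on the minus strand. The longest reading frames of Saa1 and Saa2 are 95.1% identical, while that of Saa1 is 75.9% identical to Saa3 and 65.2% to Saa4. The sequences just upstream of their RefSeq start sites (RefSeq, GRCm38.p6, within the 250 bases before the start and outside annotated exons) are shown because Saa2 was lower and Saa4 higher, and capitals mark matches to the C/EBP motif TTNNGNAA or to the kappaB consensus on either strand.
Saa1 (chr7:46742981-46743230, minus strand): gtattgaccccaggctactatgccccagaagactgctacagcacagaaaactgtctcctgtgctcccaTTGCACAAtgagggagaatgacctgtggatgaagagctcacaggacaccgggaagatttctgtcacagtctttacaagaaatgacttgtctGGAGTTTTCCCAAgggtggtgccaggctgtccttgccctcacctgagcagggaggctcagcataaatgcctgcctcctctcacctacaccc
Saa2 (chr7:46751583-46751789, plus strand): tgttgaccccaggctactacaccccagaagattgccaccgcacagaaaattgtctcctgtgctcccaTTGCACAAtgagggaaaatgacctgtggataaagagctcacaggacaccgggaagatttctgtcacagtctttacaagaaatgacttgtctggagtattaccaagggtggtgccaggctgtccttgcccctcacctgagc
Saa3 (chr7:46715701-46715926, minus strand): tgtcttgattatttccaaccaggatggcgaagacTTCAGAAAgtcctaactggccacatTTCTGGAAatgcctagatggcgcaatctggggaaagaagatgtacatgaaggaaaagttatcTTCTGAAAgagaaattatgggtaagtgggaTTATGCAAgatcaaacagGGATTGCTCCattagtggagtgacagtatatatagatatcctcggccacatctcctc
Saa4 (chr7:46732604-46732853, minus strand): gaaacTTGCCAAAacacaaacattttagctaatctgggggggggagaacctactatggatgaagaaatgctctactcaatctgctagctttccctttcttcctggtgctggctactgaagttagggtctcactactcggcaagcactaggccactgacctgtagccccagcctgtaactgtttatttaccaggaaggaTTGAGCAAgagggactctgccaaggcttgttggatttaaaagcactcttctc
In Saa1 the kappaB match, from -91 to -82 relative to the start site, overlaps a C/EBP match, and the C/EBP match from -182 to -175 recurs in Saa2. The windows of Saa1 and Saa2 are 94.8% identical, and those of Saa1 and Saa4 42.6%. Saa2 has no kappaB match, Saa3 has 4 C/EBP matches and a kappaB match from -81 to -72, and Saa4 has 2 C/EBP matches and no kappaB match.

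Saa2 stood at 42.7, 36.2 and 48.6 CPM in libraries 2, 3 and 2600 labelled S100a11 shRNA, and at 93.3, 95.2 and 110 CPM in scrambled libraries 28, 30 and 31. All 3 lay below every scrambled library, with means of 42.5 ± 6.21 and 99.4 ± 9.06 CPM (SD, n = 3 each). Saa2 was 2.34-fold lower (log2 change -1.23 ± 0.15 SE, adjusted p = 0.00351, edgeR quasi-likelihood test). Its close copy Saa1 stood at 86.0, 98.2 and 169 CPM in libraries 2, 3 and 2600, against 172, 174 and 161 CPM in the scrambled libraries. Libraries 2 and 3 were below the scrambled range and library 2600 was within it, so the groups overlapped. The log2 change of Saa1 was -0.53 ± 0.24 (SE, adjusted p = 0.174, edgeR) and -0.89 without library 2600 (adjusted p = 0.0137). Of the 6 leave-outs this was the only 1 in which Saa1 passed. Over them its log2 change ran from -0.89 to -0.38, with an adjusted p of up to 0.374 (edgeR).

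Saa3 stood at 6.52, 7.05 and 8.23 CPM in the libraries labelled S100a11 shRNA, and at 9.81, 6.19 and 5.29 CPM in the scrambled ones, with all 3 of the former inside the range of the latter. Its log2 change was 0.03 ± 0.24 (SE; adjusted p = 0.945, edgeR), and its sign turned with the scaling (-0.33 with library totals and -0.06 with upper-quartile factors). Saa4, the constitutive gene, went in the other direction from Saa2. It stood at 326, 412 and 475 CPM in libraries 2, 3 and 2600, and at 184, 158 and 172 CPM in the scrambled libraries, with no overlap between groups. The means were 404 ± 74.9 and 171 ± 13.1 CPM (SD, n = 3 each), 2.36-fold higher (log2 change 1.24 ± 0.17 SE, adjusted p = 0.00508, edgeR). With library totals the log2 change of Saa4 was 0.87, still past the threshold.

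**Figure D2:**
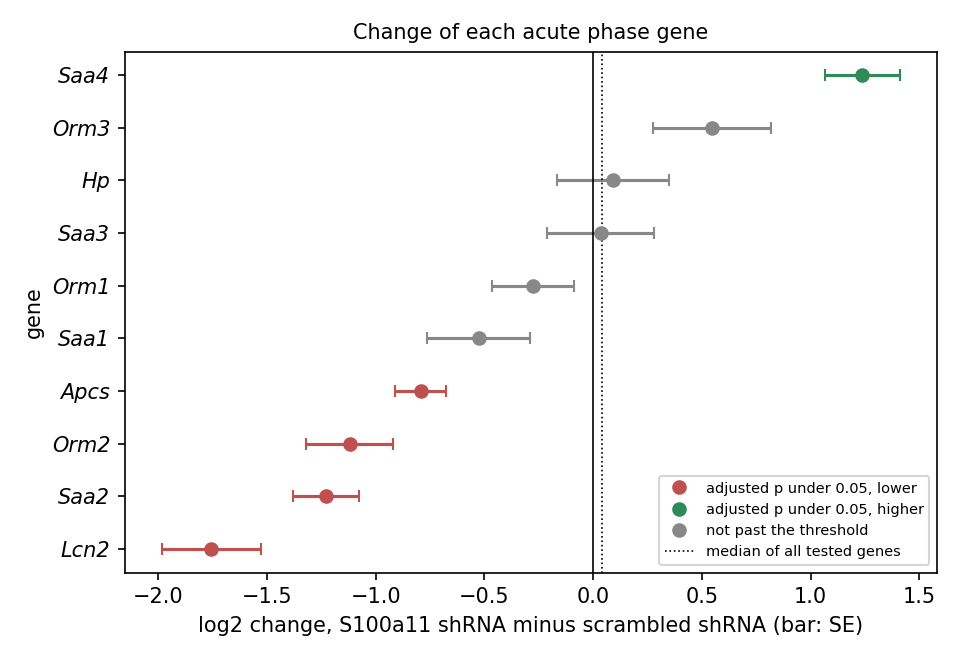
Log2 change of each of the 10 genes (S100a11 shRNA minus scrambled), with bars of 1 standard error and a vertical line at the median of all tested genes. Lcn2 has the lowest value at -1.75 and Saa4 the highest at 1.24.

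Within each library, the levels of the genes can be set against Saa4, so that library scaling cancels. Per base, Saa1 transcript stood at 3.11, 3.68 and 3.13 times Saa4 in scrambled libraries 28, 30 and 31, and at 0.880, 0.794 and 1.18 times in libraries 2, 3 and 2600 labelled S100a11 shRNA. Saa2 stood at 1.68, 1.99 and 2.11 times Saa4 per base in the scrambled libraries, and at 0.433, 0.290 and 0.338 times in the others. In counts, without correction for length, Saa4 made up 70.7%, 74.4% and 67.8% of the 4 serum amyloid A genes in the libraries labelled S100a11 shRNA. In the scrambled libraries it made up 40.1%, 36.4% and 38.3%. Saa4 has a length of 2015 bases, against 605, 610 and 531 for Saa1, Saa2 and Saa3, so its share of counts is above its share per base. The ratio of counts to Saa4 was lower in every library labelled S100a11 shRNA than in every scrambled one for 8 of the 9 other genes, and overlapped for Orm3. Saa4 itself was 2.36-fold higher without overlap, so a gene at a steady level would also show a lower ratio.

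The fall of the ratio to Saa4 was steepest for Lcn2 (log2 ratio -2.47, -3.66 and -2.98 against -0.14, 0.21 and -0.09, 8.17-fold), followed by Saa2 at 5.49-fold, Orm2 at 5.09-fold, Apcs at 4.05-fold and Saa1 at 3.51-fold. It was 2.86-fold for Orm1, and 2.21-fold each for Saa3 and Hp, whose own levels did not pass the test. For Orm3 the ratio fell 1.56-fold with overlapping groups. Each of the 8 separated ratios had p = 0.1 by a two-sided exact permutation test, the smallest that 3 against 3 libraries can give, and an adjusted p of 0.1125 over the 9 ratios, so none passed 0.05. All 9 ratios share the Saa4 denominator, so they are not 9 separate findings. With Alb as the denominator the falls were smaller, 4.16-fold for Lcn2, 2.80-fold for Saa2, 2.59-fold for Orm2, 2.06-fold for Apcs and 1.46-fold for Orm1, again with no overlap between groups (p = 0.1 each, exact permutation test). For Saa1 the fall was then 1.79-fold (p = 0.3), for Saa3 and Hp 1.13-fold each (p = 0.7), all with overlapping groups (exact permutation tests).

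**Figure D3:**
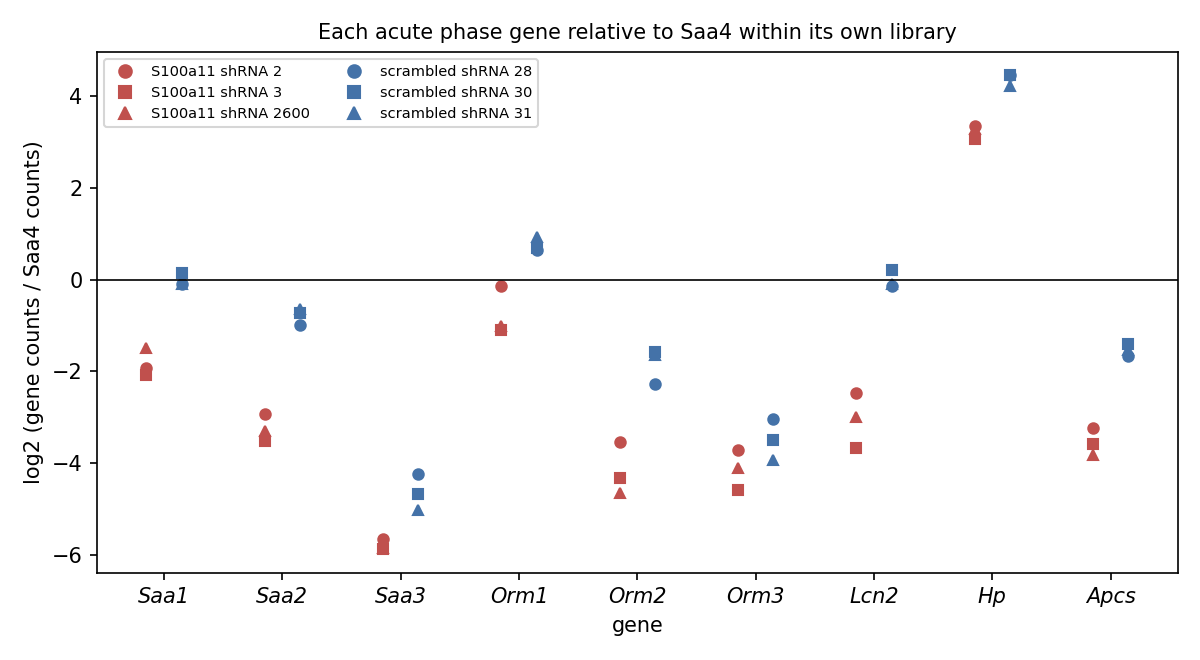
Log2 ratio of the counts of each gene to those of Saa4 within each library, with a point per library. The libraries labelled S100a11 shRNA lie below the scrambled ones for 8 of the 9 genes, and Orm3 overlaps. Saa4 itself was higher in the libraries labelled S100a11 shRNA, which lowers every ratio.

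Saa1 and Saa2 share sequence. Of the 50-base stretches of their transcripts, 14.8% of those of Saa1 and 9.1% of those of Saa2 also occur in another gene. Of the 100-base stretches of either, 0.0% do. Depending on read length, reads could be split between Saa1 and Saa2 in ways the table does not show. Their counts were therefore also added up. Saa1 and Saa2 together stood at 129, 134 and 217 CPM in the libraries labelled S100a11 shRNA, and at 265, 270 and 271 CPM in the scrambled ones, with no overlap. The sum was 1.68-fold lower (log2 change -0.75 ± 0.21 SE, adjusted p = 0.044, edgeR). Saa2 made up 33.2%, 26.9% and 22.4% of the sum in libraries 2, 3 and 2600, against 35.2%, 35.3% and 40.5% in the scrambled libraries, lower in 3 of 3 (p = 0.1, exact permutation test, the smallest possible).

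**Figure D4:**
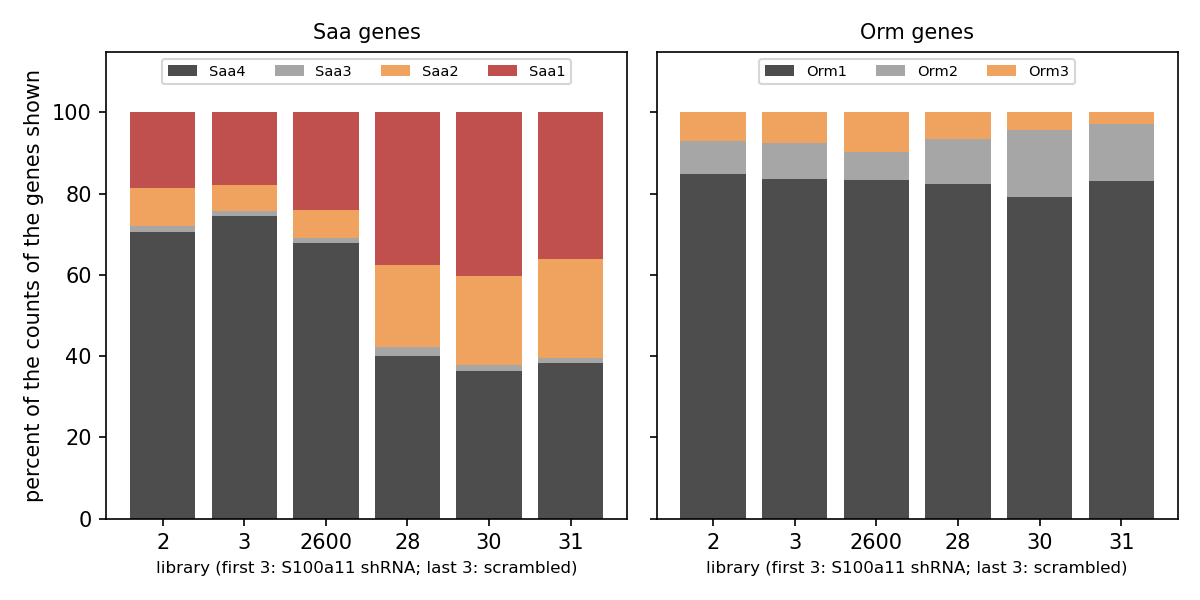
Percent of the counts of the serum amyloid A genes and of the orosomucoid genes held by each gene, a bar per library. Counts are not corrected for gene length, and Saa4 is the longest of the serum amyloid A genes. Saa4 holds 36.4% to 40.1% of the serum amyloid A counts in the scrambled libraries and 67.8% to 74.4% in those labelled S100a11 shRNA, while Orm1 holds most of the orosomucoid counts in every library.

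The 3 orosomucoid genes are neighbours on chromosome 4, Orm1 at chr4:63344560-63348163, Orm3 at chr4:63356162-63359511 and Orm2 at chr4:63362449-63365878, all on the plus strand. The longest reading frames of Orm1 and Orm2 are 89.9% identical. The sequences upstream of Orm2 and Orm3 are shown because Orm2 was lower while its neighbour Orm3 did not pass the test, with capitals for the C/EBP motif as above.
Orm2 (chr4:63362199-63362448, plus strand): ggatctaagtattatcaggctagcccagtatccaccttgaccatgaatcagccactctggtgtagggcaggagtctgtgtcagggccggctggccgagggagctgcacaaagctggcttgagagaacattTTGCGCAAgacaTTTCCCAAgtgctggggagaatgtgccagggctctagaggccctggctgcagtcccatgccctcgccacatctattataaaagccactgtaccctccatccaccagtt
Orm3 (chr4:63355908-63356157, plus strand): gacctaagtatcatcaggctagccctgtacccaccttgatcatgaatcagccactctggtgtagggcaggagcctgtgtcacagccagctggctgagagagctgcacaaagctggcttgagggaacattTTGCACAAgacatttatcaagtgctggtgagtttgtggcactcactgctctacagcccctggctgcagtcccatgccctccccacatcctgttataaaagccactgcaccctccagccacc
These windows are 85.5% identical. Orm2 has 2 C/EBP matches, from -120 to -113 and from -108 to -101, Orm3 has 1, from -121 to -114, and both hold TATAAA.

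Orm2 stood at 27.9, 20.4 and 19.0 CPM in libraries 2, 3 and 2600 labelled S100a11 shRNA, and at 38.3, 52.8 and 55.2 CPM in scrambled libraries 28, 30 and 31. The groups did not overlap, and Orm2 was 2.17-fold lower (log2 change -1.12 ± 0.20 SE, adjusted p = 0.00988, edgeR). Without scrambled library 30 the log2 change was -1.06 with an adjusted p of 0.0507, no longer under the threshold. Orm1, the most abundant orosomucoid, stood at 295, 191 and 234 CPM against 286, 256 and 330 CPM. Library 2 lay within the scrambled range and libraries 3 and 2600 below it, with a log2 change of -0.28 ± 0.19 (SE; adjusted p = 0.37, edgeR). Orm3 stood at 24.8, 17.3 and 27.7 CPM against 22.5, 14.0 and 11.3 CPM, a log2 change of 0.55 ± 0.27 (SE; adjusted p = 0.216, edgeR) with overlapping groups.

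Orm2 made up 8.02%, 8.93% and 6.75% of all orosomucoid counts in libraries 2, 3 and 2600, below the 11.04%, 16.4% and 13.9% of the scrambled libraries. The share of Orm3 was 7.13%, 7.55% and 9.86%, above the 6.48%, 4.34% and 2.85% of the scrambled libraries. Both shares separated the groups with p = 0.1, the smallest that an exact permutation test of 3 against 3 allows. The 3 genes added together had a log2 change of -0.31 ± 0.18 (SE; adjusted p = 0.291, edgeR). Of the 50-base stretches, 20.4% of those of Orm1 and 22.7% of those of Orm2 also occur in another gene. Of the 100-base stretches, 7.0% of those of each do, so the split of reads between these copies is uncertain.

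Lcn2, at chr2:32384633-32388252 on the minus strand, had the lowest log2 change of the 10 genes. It stood at 59.0, 32.5 and 60.1 CPM in libraries 2, 3 and 2600 labelled S100a11 shRNA, and at 167, 182 and 162 CPM in scrambled libraries 28, 30 and 31. The groups were far apart, at 50.5 ± 15.6 and 170.4 ± 10.4 CPM (SD, n = 3 each), 3.37-fold lower (log2 change -1.75 ± 0.23 SE, adjusted p = 0.00449, edgeR). None of the 50-base stretches of its transcript occurs in another gene. The stretch upstream of its RefSeq start site that lies outside annotated exons is shown for its kappaB match, in capitals, from -102 to -93. That start site, at 32387739, lies inside the interval given above. The stretch is thus within the gene, between annotated exons, and not upstream of the whole gene.
Lcn2 (chr2:32387798-32387850, minus strand): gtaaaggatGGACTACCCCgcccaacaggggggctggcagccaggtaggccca
A second kappaB match, from -43 to -34, and a C/EBP match, from -216 to -209, lie in the annotated exons that are not printed.

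Lcn2 is also made by neutrophils, macrophages and bile duct cells, so their markers are given beside it. Of 12 neutrophil markers 9 were below 1 CPM in every library, among them S100a8, Ly6g and Camp, and 2 of the 9 tested were lower (Ngp and Mpo). Ngp and Mpo had at most 7 counts in any library labelled S100a11 shRNA. The summed level of the neutrophil markers was 22.4 to 27.3 CPM in the scrambled libraries and 11.8 to 22.7 CPM in those labelled S100a11 shRNA. Most of this was Csf3r, at 19.2 to 21.2 CPM and 10.5 to 19.6 CPM, which did not pass (adjusted p = 0.144, edgeR). Of 12 macrophage markers 5 were lower (Trem2, Gpnmb, Cd68, Lyz2 and C1qb) and none higher. All 12 summed to 783.2 to 1194 CPM in the scrambled libraries and to 359.7 to 775.9 CPM in the others. By sign alone, 10 of the 12 were lower and 2 higher, Marco and Clec4f. Marco had a log2 change of 3.17 (adjusted p = 0.112, edgeR), with 20.6 CPM in library 2600, and Clec4f of 0.00 after rounding. Of 10 cholangiocyte markers, which mark bile duct cells, 9 were lower. All 10 summed to 472 to 583 CPM in the scrambled libraries and to 124 to 143 CPM in the others. Most of this was Spp1, with means of 258 and 43.8 CPM, and Pkhd1, with means of 225 and 75.3 CPM. Without library 3, 2600, 28, 30 or 31 the count of lower macrophage markers was 2, and without library 2 it was 6, with 1 higher. The count of lower neutrophil markers was 4 without library 2600, 1 without library 3, 28, 30 or 31, and 0 with a minimum of 1 CPM in 3 libraries. Of all tested genes, 2.96%, 6.29%, 5.18%, 2.54% and 3.47% were called lower without library 3, 2600, 28, 30 or 31. Without library 2, 12% were called lower and 9.13% higher, and 9.02% were lower with the minimum of 1 CPM. The part of these cell types in the lower Lcn2, Saa2, Orm2 and Apcs was not tested.

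Adipose tissue also makes Saa3, Lcn2 and Hp, and its defining markers Adipoq, Plin1, Lep and Retn were below 1 CPM. Of the 3 adipocyte markers tested Cfd and Lipe were higher and Fabp4 was lower. The summed level of 9 hepatocyte markers, Alb and Apoa1 among them, was 45240 to 56620 CPM in the scrambled libraries and 55160 to 74220 CPM in those labelled S100a11 shRNA, with 1 of 9 called higher. The tissue label liver was thus borne out by abundant hepatocyte transcripts in all 6 libraries.

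Apcs, at chr1:172893961-172895041 on the minus strand, had the smallest SD relative to its mean within each group of the 10 genes. It stood at 34.6, 34.2 and 33.6 CPM in the libraries labelled S100a11 shRNA, and at 58.0, 59.9 and 59.5 CPM in the scrambled ones. The groups did not overlap, and Apcs was 1.73-fold lower (log2 change -0.79 ± 0.12 SE, adjusted p = 0.00578, edgeR). Hp, at chr8:109575130-109579172 on the minus strand, was the most abundant of the 10 and ranked 14 among all tested genes by RPKM. It stood at 3311, 3426 and 4624 CPM in libraries 2, 3 and 2600, against 4025, 3460 and 3187 CPM. The groups overlapped, with a log2 change of 0.09 ± 0.26 (SE; adjusted p = 0.851, edgeR), and the sign turned under library totals (-0.28) and upper-quartile factors (-0.01).

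Of the 10 genes, 8 matched an entry in the RefSeq promoter table. A C/EBP match was found in 7 of these 8, all but Apcs, within the 250 bases before the start, beside 36.8% of 32851 promoters of the same length. The windows of Saa1 and Saa2 are 94.8% identical and those of Orm2 and Orm3 85.5%, so the 8 are not separate cases. In Lcn2 the match lies in an annotated exon, and its RefSeq start lies inside the gene's interval. A kappaB match was found in 3 (Saa1, Saa3 and Lcn2), beside 23.2% of promoters. The STAT motif TTCNNNGAA was found only in Apcs, beside 7.0% of promoters, as was CTGGGA, a core of interleukin 6 response elements, beside 27.0%. Of the 4 genes that were lower, Lcn2 holds a kappaB match and Saa2, Orm2 and Apcs do not, and Saa3, which holds one, had a log2 change of 0.03. A match is a description of these letters and not a binding site.

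Some genes had profiles over the 6 libraries very like those of these genes, by the root mean square difference of log2 CPM after centring on each gene's own mean, among 11475 tested genes whose mean was 5 CPM or more. Nearest to Lcn2 was Clcf1, a cytokine that signals through the interleukin 6 receptor subunit gp130, at 0.10, followed by Sox4 (0.16) and Spon2 (0.18). Nearest to Saa4 was Hpd, an enzyme of tyrosine breakdown (0.07), followed by Afmid, an enzyme of tryptophan breakdown (0.10). Nearest to Saa2 were Ptpre and Cerk (0.09 each), and nearest to Orm2 was Lsp1 (0.07). Among the 10 genes themselves Saa3 and Hp were closest (0.18), then Orm2 and Saa2 (0.26), Saa2 and Apcs (0.27), and Orm2 and Apcs (0.28). Saa4 lay 1.24 from Saa2 and 1.56 from Lcn2, and its nearest of the 10 was Orm3 at 0.48. Genes that vary little lie close by this measure whatever their pattern. The root mean square of the centred profile itself was 0.19 for Hp, 0.29 for Saa3 and 0.46 for Orm3. These distances are descriptions over 6 shared libraries.

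The cytokines that induce acute phase genes were mostly low. Of 14 listed, 10 were tested, 2 were lower (Clcf1 and Lif) and none was higher, with a median log2 change of -0.25. Clcf1 stood at 6.86, 4.03 and 7.03 CPM in libraries 2, 3 and 2600, below the 19.4, 25.7 and 19.7 CPM of the scrambled libraries, 3.62-fold lower (adjusted p = 0.0042, edgeR). Lif, a leukaemia inhibitory cytokine that also acts through gp130, was 4.20-fold lower (adjusted p = 0.017), but not past the threshold without library 3 (0.0739), scrambled 30 (0.0621) or scrambled 31 (0.0571). Tnf had a log2 change of -0.97 (adjusted p = 0.0549) and Osm of -1.72 (adjusted p = 0.0561). Both passed with upper-quartile factors (0.0371 and 0.046) and with library totals (0.0119 and 0.0185), which gave 4 lower cytokine genes each, and Tnf passed with DESeq2 (0.0201), which gave 3 lower and 1 higher. Of all tested genes, these settings called 10.2%, 20.5% and 11% lower, and DESeq2 called 8.38% higher. Il1b had a log2 change of 0.20 (adjusted p = 0.836), with a sign that turned under library totals (-0.19). Il6 reached at most 0.139 CPM in any library and did not pass the filter on low counts, like Il22, Il17a and Ifng.

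Of 14 receptor genes for these cytokines 13 were tested, 3 were higher (Il6ra, Lifr and Il1rap) and 1 was lower (Il10rb). Il6ra, the interleukin 6 receptor, had means of 121 ± 17.6 and 59.0 ± 6.99 CPM (SD, n = 3 each), 2.05-fold higher (log2 change 1.04 ± 0.16 SE, adjusted p = 0.00616, edgeR). Lifr, the receptor of Lif, was 2.30-fold higher (adjusted p = 0.00939), with an adjusted p of 0.0515 without scrambled library 30. Il1rap, the partner chain of the interleukin 1 receptor, was 1.73-fold higher (adjusted p = 0.0177) and Il10rb 1.76-fold lower (adjusted p = 0.0158). Without scrambled library 30 the adjusted p was 0.0832 for Il1rap and 0.0596 for Il10rb, without library 3 it was 0.0658 and 0.0534, and without scrambled library 31 it was 0.0621 and 0.0636. The shared subunit gp130 (Il6st) had a log2 change of 0.36 (adjusted p = 0.234) and Il1r1 of 0.26 (adjusted p = 0.249). With library totals 2 receptor genes were higher and 5 lower, when 2.05% of all tested genes were called higher and 20.5% lower.

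Of 22 signal transducers and transcription factors 2 were higher, among them Cebpb, a C/EBP factor of the acute phase response, and none was lower. Cebpb had means of 77.0 ± 5.30 and 42.5 ± 10.8 CPM (SD, n = 3 each), 1.81-fold higher (log2 change 0.86 ± 0.19 SE, adjusted p = 0.0225, edgeR). With library totals Cebpb did not pass (adjusted p = 0.125). No member of the list was then higher and 4 were lower, beside 2.05% and 20.5% of all tested genes. Without library 3 the adjusted p of Cebpb was 0.0713, and without scrambled library 30 it was 0.0598. Stat3 had a log2 change of 0.37 (adjusted p = 0.271), Nfkb1 of -0.11 (adjusted p = 0.655) and Cebpd of 0.54 (adjusted p = 0.231). Of 12 feedback inhibitors and direct targets of these pathways 0 passed edgeR's test, also with DESeq2 and limma voom, and 2 had an unadjusted p under 0.05 (Tnfaip3, log2 change -0.67, and Nfkbia, 0.35). With library totals 3 were lower, and without library 2600 1 was, Tnfaip3, when 20.5% and 6.29% of all tested genes were called lower. Socs3, the feedback inhibitor that STAT3 induces, had a log2 change of -0.16 ± 0.31 (SE; adjusted p = 0.784, edgeR).

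Of 29 other genes listed as positive acute phase genes, all tested, 6 were higher, 2 were lower and 21 did not pass, with a median log2 change of 0.24. The higher ones were Serpina3m, Serpina1a, Serpina3k, Serpina1b, Mbl1 and Mbl2, protease inhibitors and mannose-binding lectins. Serpina1a is also among the hepatocyte markers, and whether each listed gene responds to inflammation in these mice was not tested. Serpina3m was 1.86-fold higher (adjusted p = 0.0121) and Serpina1a 1.75-fold higher (adjusted p = 0.0125), and as members of families of near-identical copies their counts are uncertain. Serpina3k, of the same family, had the highest log2 change of the list, 1.74 ± 0.39 (SE; adjusted p = 0.0223, edgeR). Without scrambled library 30 the adjusted p was 0.0519 for Serpina3m and 0.0686 for Serpina1a, and Serpina3m also missed the threshold without library 3 (0.0513) or scrambled library 31 (0.0603). Cd14, a lipopolysaccharide co-receptor, was among the lower ones (3.37-fold, adjusted p = 0.0156, edgeR). Without scrambled library 30 no gene of this list was higher and 1 was lower, and with library totals 1 was higher and 4 were lower. Of all tested genes, 1.12% were called higher and 2.54% lower without that library, and 2.05% and 20.5% with library totals. Crp had a log2 change of 0.24 (adjusted p = 0.427).

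Negative acute phase genes, whose output falls in inflammation, had a median log2 change of 0.48, with 6 of 15 higher (Serpina6, Tat, Pon1, Rbp4, Fetub and Hrg) and none lower. Serpina6, which encodes the corticosteroid carrier of plasma, had means of 261 ± 62.8 and 90.1 ± 28.7 CPM (SD, n = 3 each), 2.90-fold higher (adjusted p = 0.00972, edgeR). Tat, a tyrosine aminotransferase, was 2.50-fold higher (adjusted p = 0.0119), Pon1, an esterase of high-density lipoprotein, 2.37-fold (adjusted p = 0.0193) and Rbp4, the retinol carrier, 1.73-fold (adjusted p = 0.023). The count fell to 3 with library totals, to 2 without library 3 or without scrambled library 31 and to 1 without scrambled library 30, where the adjusted p was 0.0519 for Tat, 0.0864 for Pon1 and 0.102 for Rbp4. In the same order, the share of all tested genes called higher fell from 5.82% to 2.05%, 2.16%, 2.1% and 1.12%. Alb had a log2 change of 0.26 ± 0.43 (SE; adjusted p = 0.733).

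Of 16 genes for receptors, carriers and partners of these proteins 15 were tested and 0 passed edgeR's test, with a median log2 change of 0.01. An unadjusted p under 0.05 was seen for 5 of them, DESeq2 called 1 higher and 1 lower, limma voom called 1 lower, and with library totals 4 were lower. Without library 2, 1 was higher and 3 were lower. Of all tested genes, DESeq2 called 8.38% higher and 11% lower, and limma voom called 8.35% lower. With library totals 20.5% were called lower, and without library 2 9.13% were higher and 12% lower. Cd163, the macrophage receptor for haptoglobin bound to haemoglobin, stood at 0.573, 6.41 and 27.8 CPM in libraries 2, 3 and 2600, and at no more than 1.40 CPM in any scrambled library. Libraries 3 and 2600 lay above the scrambled range and library 2 within it, with a log2 change of 3.50 ± 1.06 (SE; adjusted p = 0.0584, edgeR) and of 4.04 without library 2 (adjusted p = 0.00206). Cd163 also passed with DESeq2 (adjusted p = 0.0332) and with no filter (adjusted p = 0.0338). Slc22a17, a receptor for lipocalin 2, had a log2 change of -0.74 ± 0.30 (SE; adjusted p = 0.137, edgeR), and Tlr4, a receptor of innate immunity, of -0.55 ± 0.20 (SE; adjusted p = 0.11, edgeR).

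**Figure D5:**
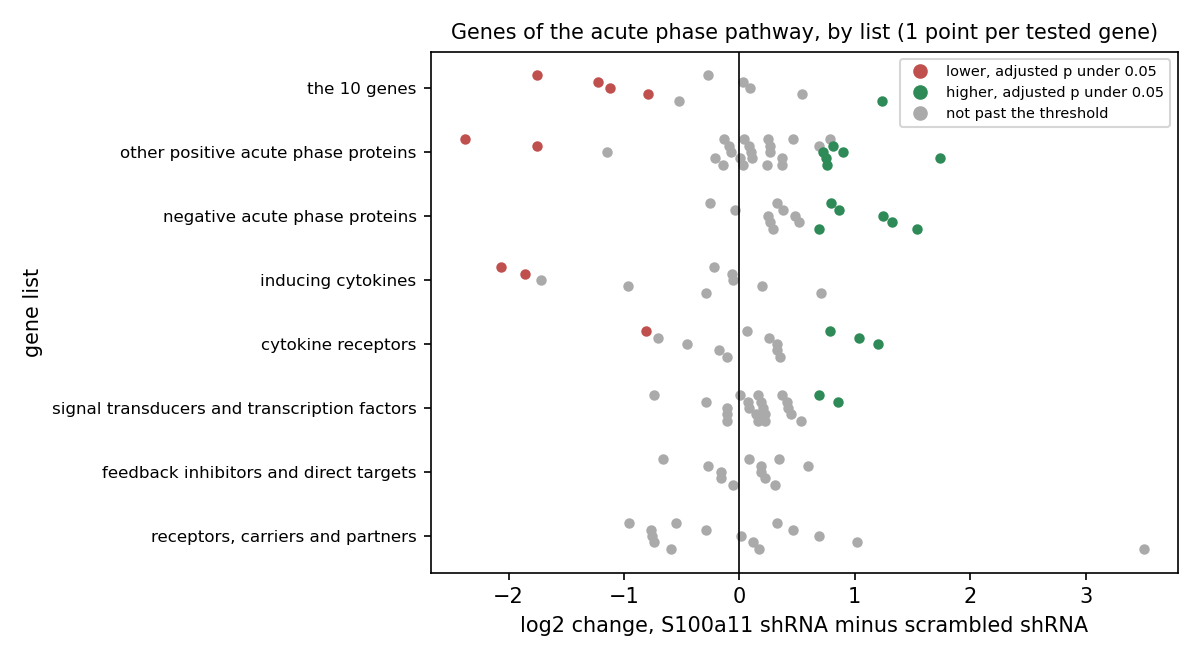
Log2 change of each tested gene in the lists of acute phase, cytokine, receptor, transcription factor and feedback genes, a point per gene, red for genes called lower, green for genes called higher and grey for the rest. The negative acute phase list has its 6 called genes to the right of 0, and the inducing cytokine list has its 2 called genes to the left.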

How the data were processed

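Ribosomal RNA was depleted and stranded total RNA libraries were made, per the labels' protocols. The authors deposited raw counts for each Ensembl gene, on mm10 per the submitters' processing notes. Aligner, counter and strand use: not given in the sources used here. No columns of other samples were present (0). The table's gene lengths, used for RPKM, are the authors' deposited values.

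The whole count table was fitted with edgeR 4.0.16 in R 4.3.3 (filterByExpr with minimum count 10 and minimum total 15, TMM, glmQLFit without the legacy setting, glmQLFTest, Benjamini-Hochberg over 19352 genes, threshold 0.05). The filter kept at least 99.95% of the counts, and the common biological coefficient of variation was 0.223. The standard error of a log2 change is its size divided by the root of the F statistic. Ratios and shares were computed per library, ratios after adding 0.5 counts, and compared by two-sided exact permutation tests. No pair of libraries was a duplicate: the lowest chi-square per gene of any pair was 48.4, over genes with at least 20 counts. The script was tested on simulated data, in which 7.89% of 1.5-fold, 65.2% of 2-fold and 100% of 4-fold changes were called. A gene that did not pass may therefore still have changed.

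The 10 genes and the lists were chosen with earlier results of these data known. Named genes were the 10 genes and S100a11. Another 14 were listed by name (Il6, Il1b, Tnf, Osm, Il6ra, Il6st, Il1r1, Stat3, Socs3, Cebpb, Cebpd, Nfkb1, Crp and Alb). The first 4 by p of each list and the 3 nearest profiles of each of the 10 genes were also named. Further list members are named only to spell out a count or a sum, after their values were seen. A few results under this rule are not reported here. Promoters came from RefSeq (GRCm38.p6). Alternatives were RLE and upper-quartile factors, library totals, scaling without the 20 most abundant genes, no filter, at least 1 CPM in 3 libraries, DESeq2 1.42.0, limma 3.58.1 voom, summed copies, leaving out each library, 5 counts added in ratios, and Alb as denominator. Tables and figures used python 3.11.15, biopython 1.88, pandas 2.3.3 and matplotlib 3.10.9.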

Additional observations from a re-analysis of the deposited data

How the results depend on the processing

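Saa2, Saa4, Lcn2 and Apcs kept their direction and stayed past the threshold in all 6 leave-outs and in the 10 other settings, where the setting with summed copies gives Saa2 the value of its sum with Saa1. The number of genes called, 2728, was 4367 with library totals and ran from 724 to 4176 when 1 library was left out; without scrambled library 30 it was 724 and without library 2 it was 4176. S100a11 passed the threshold with library totals (-1.90, adjusted p = 0.0424) and with limma voom (-1.89, adjusted p = 0.0417), and its log2 change ran from -2.75 to -1.22 over the leave-outs. With Alb in place of Saa4 as the denominator, the difference between groups in the log2 ratio of Orm3 turned to 0.33. With library totals the sign turned for Saa3 (-0.33), Hp (-0.28), Il1b (-0.19), Il6st (0.00 after rounding), Il1r1 (-0.11), Stat3 (-0.01), Crp (-0.13), Alb (-0.08), Nfkbia (-0.02) and Ptpn11 (-0.13), with upper-quartile factors for Saa3 (-0.06) and Hp (-0.01), and with limma voom for Il1b (-0.15). With the copies summed, Orm3 took the sum's -0.31. Over the leave-outs the log2 change ran from -0.14 to 0.34 for Saa3, from -0.10 to 0.19 for Hp, from -0.74 to 0.58 for Il1b and from -0.67 to 0.09 for Socs3. Except where the construction shows it (fewer libraries, summed copies), the cause was not tested. The legacy quasi-likelihood, chosen after seeing the data, called 2546 genes and the same 5 of the 10 genes. No paired analysis was possible because the groups share no replicate numbers. With 3 libraries per group no permutation p can go below 0.1.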
